A study of Mus musculus with 6 samples.

Results

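Glycolysis, glucose transport and hypoxia genes were examined in mouse embryonic stem cells (ESCs) with and without miR-302. The set lists 41 genes by name: glucose and lactate transporters, the glycolytic enzymes, the pyruvate dehydrogenase kinases and genes known to respond to low oxygen. The names follow the roles of the genes in these pathways; no measured value enters the rule, though the set was drawn up with earlier results of these data known. Of the 41, 36 could be read from an array row assigned to that gene alone, out of 22180 genes measured in this way. The other 5 (Gpi1, Aldoa, Eno1, Bnip3l and Ankrd37) had no such row and were not tested. Ero1l appears in the annotation under its current name, Ero1a.

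All 6 samples were Dgcr8-/- ESCs. Dgcr8 is the RNA-binding partner of the nuclease Drosha, and cells without it make no canonical miRNAs, so both groups share that deletion. The 3 control samples carried a control hairpin. The 3 miR-302 samples carried sh-miR-302, a hairpin that supplies mimics of miR-302, a miRNA family abundant in early pluripotent cells. Neither the member of the miR-302 family, the oxygen or glucose in the culture, nor the number of cell clones is stated by the labels. Levels are RMA values on a log2 scale, so a difference of 1 is a doubling.

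Glycolysis turns glucose into pyruvate in the cytosol. Transporters of the SLC2A family bring glucose in, hexokinase traps it by phosphorylation, phosphofructokinase commits it to breakdown, and lactate dehydrogenase and the monocarboxylate transporters dispose of the end product as lactate. Pyruvate dehydrogenase kinases (PDKs) hold back pyruvate dehydrogenase, and so the use of pyruvate inside the mitochondrion. When oxygen is low, the hypoxia-inducible factor HIF1A is no longer hydroxylated by the EGLN enzymes, escapes degradation and activates many of these same genes, as well as genes such as Vegfa, Bnip3 and Car9. Mouse ESCs in culture are known for high glycolytic flux.

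miR-302 replicate 1 stood apart from its group. Across all genes it correlated with miR-302 replicates 2 and 3 at r = 0.990 each, whereas those correlated with each other at 0.997 and the control arrays among themselves at 0.996 to 0.997. Counts of calls that change without that array are therefore also given without it. None of 10 ESC markers passed the test, while without miR-302 replicate 1 Sox2, Zfp42 and Fgf4 were called lower, at −0.44, −0.37 and −0.41. The summed level of the 10 was 30763 to 31472 in control arrays and 28343 to 35977 with miR-302, where replicate 1 was the highest. Of 8 trophectoderm markers 6 were higher (8 without miR-302 replicate 1), and their summed level went from 1327–1420 to 3645 in miR-302 replicate 1 and to 9702 and 9379 in replicates 2 and 3. Of 12 fibroblast markers 1 was lower, and without that array 2 were lower and 1 higher (summed level 612–622 and 623–713), and of 7 primitive endoderm markers 3 were higher and 1 lower (374–402 and 402–443). Over all genes tested, 7.18% were called higher and 9.25% lower. Without miR-302 replicate 1 these shares were 11.2% and 13.1%. Whether a change in the mix of cells takes part in the results below was not tested. In bulk RNA, fewer cells of a type and less RNA per cell cannot be told apart.

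Sequences in RefSeq (GRCm38.p6, chromosome 3, plus strand) are shown for the mature 3p strands of miR-302b, miR-302c and miR-302d. Other members of the family, such as miR-302a, and the opposite strands are not shown. Which member of the family the hairpin supplied is not stated. Capitals mark the seed, bases 2 to 8 from the 5′ end, through which a miRNA pairs with its targets.
miR-302b-3p: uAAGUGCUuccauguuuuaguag
miR-302c-3p: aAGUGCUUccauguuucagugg
miR-302d-3p: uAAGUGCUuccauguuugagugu
The annotated miR-302b-3p and miR-302d-3p share their seed. The annotated miR-302c-3p begins 1 base further in, so that its bases 2 to 8 read AGUGCUU.

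With miR-302, glucose transporters rose while several glycolytic enzymes fell. Of the 36 genes measured, 5 were higher (Slc2a1, Slc2a3, Adm, P4ha2 and Ndrg1) and 6 lower (Hk1, Pfkm, Pfkp, Aldoc, Eno3 and Pdk4) by limma at an adjusted p under 0.05, and 25 were not called. That is 11 of 36 genes, where 16.4% of all 22180 genes were called, 7.18% higher and 9.25% lower. Both transporters of glucose uptake rose, 5 of 17 glycolytic enzymes fell and none rose, and of 11 hypoxia genes 3 rose and none fell. Without miR-302 replicate 1, 7 of the 17 enzymes fell, and of the hypoxia genes 4 rose and 2 fell. The changes of the 11 genes called with all arrays were mostly small. Of these, 7 reached 1.5-fold between measured values, as 7.04% of all genes did with a call, and Ndrg1 alone reached 2-fold. The median log2 fold change was −0.12 over the 36 genes, −0.19 over the glycolytic enzymes and 0.21 over the hypoxia genes, beside 0.01 over all genes tested. On these arrays 32 of the 36 had a mean value at or above the median over all genes. When only genes at or above that level were tested, 13 of 32 were called, against 38.7% of all genes so tested, so the share called was near that of all genes with such values.

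**Figure D1:**
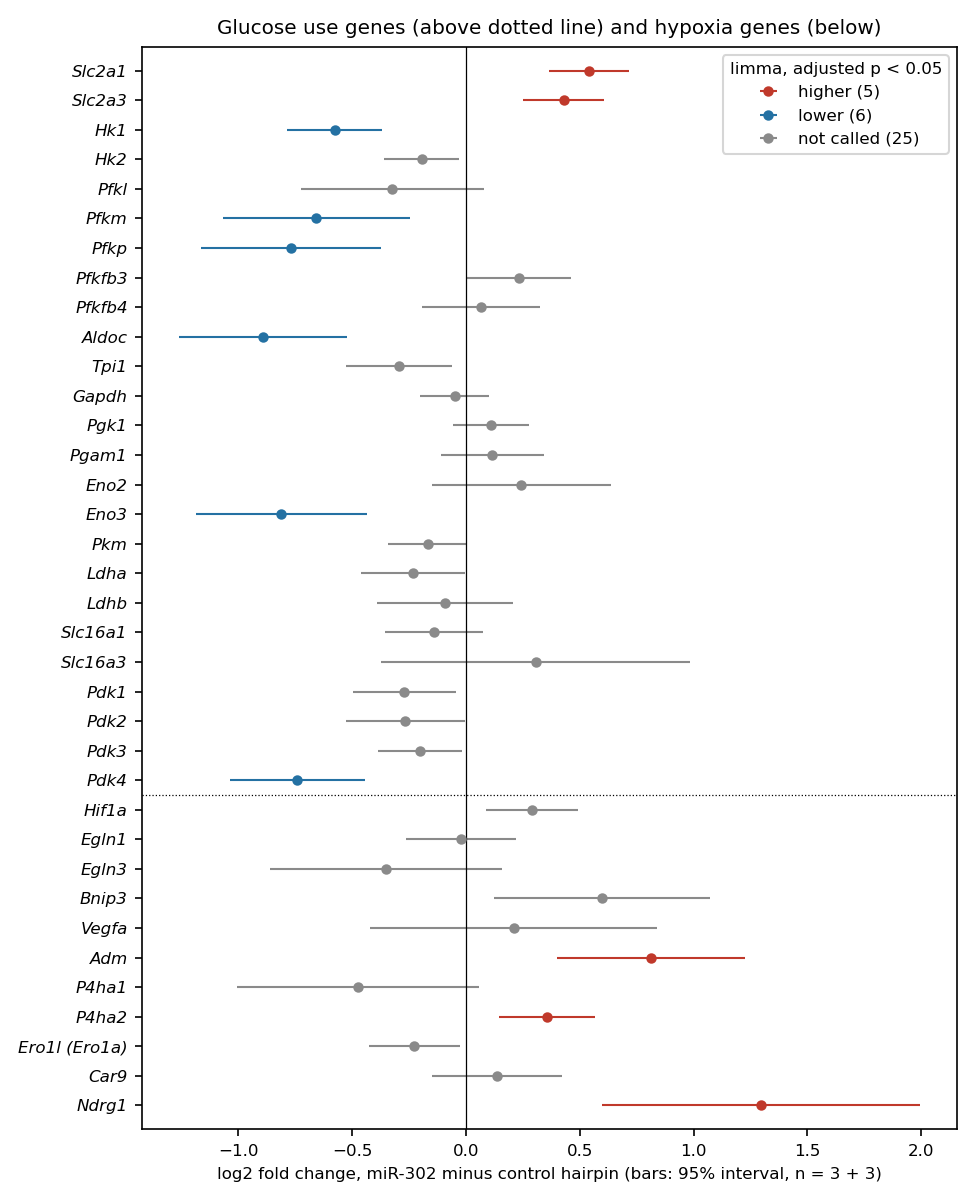
Log2 fold change of the 36 measured genes, miR-302 minus control hairpin (x axis), with genes in pathway order (y axis). Points are differences of the means of 3 and 3 arrays, bars are 95% intervals from limma, and colour gives the call. The 5 genes called higher are the 2 glucose transporters and 3 hypoxia genes, and the 6 called lower are 5 glycolytic enzymes and Pdk4.

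The number of calls depended strongly on single arrays. Without miR-302 replicate 1, 19 of the 36 were called (24.3% of all genes), 6 of them higher (11.2% of all genes) and 13 lower (13.1%). The 8 genes gained were Pfkl, Tpi1, Pdk1, Pdk2, Pdk3, Egln3 and P4ha1, all lower, and Hif1a, higher. Among genes not called in either fit, the log2 difference of Ldhb went from −0.09 to −0.23, that of Eno2 from 0.24 to 0.08, that of Pgam1 from 0.12 to 0.03, that of Slc16a1 from −0.14 to −0.07 and that of Pfkfb4 from 0.07 to 0.17. Leaving out control hairpin replicate 1, 2 or 3 gave 4, 5 and 4 calls (7.79%, 8.03% and 7.86% of all genes), and leaving out miR-302 replicate 2 or 3 gave 5 and 8 (9.36% and 8.75%). Slc2a1, Hk1 and Pdk4 were called in all 6 of these fits and Slc2a3 and Aldoc in 5, while Eno3 and Adm were called in 2 and Pfkm, Pfkp, P4ha2 and Ndrg1 only without miR-302 replicate 1. Letting the prior variance follow intensity, with a robust prior, gave 17 calls (20.7% of all genes), and array weights gave 22 (25.3%).

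The letters ACGTG and GCGTG are the core of the hypoxia response element, to which HIF binds. They were searched on both strands in the 250 bases before each RefSeq gene start (GRCm38.p6), for the 38 listed genes that have such a window. Slc2a3, Ndrg1 and Bnip3l have none. Part of the set was listed for a known response to low oxygen, so a high share of matches is no independent evidence of one. Of their 53 windows 81.1% hold a match, against 38.6% of all 32851 windows, and 35 of the 38 genes have a window with a match, against 41.5% of all genes in the table. Among windows of the genes tested on the arrays the share was 44.7%. Some windows of the same gene overlap, so a match in them can count more than once. The windows of these genes are richer in G and C (median 60.4%) than all windows (52.4%). Among windows at or above 60.4%, 96.4% of the 28 from these genes and 64.1% of all 8862 hold a match. The motif ACGTG overlaps the E-box CACGTG, which Myc proteins bind; 13.2% of the windows of these genes and 6.02% of all hold that. Matches stood in all classes of response: the 3 genes called higher that have a window, the 6 called lower and 23 of the 25 not called all have a window with a match. A match is a stretch of letters and not a measured site of binding.

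Windows with a match are shown for Slc2a1 and Adm, which rose, and for Pfkp, Eno3 and Pdk4, which fell. Since 35 of the 38 genes have a window with a match, these windows say nothing about direction. Each is written 5′ to 3′ on the strand of the gene, with matches in capitals.
Slc2a1: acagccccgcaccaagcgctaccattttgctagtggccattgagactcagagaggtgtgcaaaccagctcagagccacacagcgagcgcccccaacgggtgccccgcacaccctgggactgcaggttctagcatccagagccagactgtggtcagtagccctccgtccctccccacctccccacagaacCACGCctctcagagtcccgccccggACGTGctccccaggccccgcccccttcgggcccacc
Adm: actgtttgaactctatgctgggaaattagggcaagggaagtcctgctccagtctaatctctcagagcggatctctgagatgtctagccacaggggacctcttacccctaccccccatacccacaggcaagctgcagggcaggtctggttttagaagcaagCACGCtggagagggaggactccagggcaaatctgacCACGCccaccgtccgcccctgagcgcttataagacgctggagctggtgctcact
Pfkp: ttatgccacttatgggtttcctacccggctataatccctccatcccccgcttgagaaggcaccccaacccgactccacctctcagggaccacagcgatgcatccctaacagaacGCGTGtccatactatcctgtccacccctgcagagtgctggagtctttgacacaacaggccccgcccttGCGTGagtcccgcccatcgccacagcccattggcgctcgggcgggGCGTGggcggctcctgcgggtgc
Eno3: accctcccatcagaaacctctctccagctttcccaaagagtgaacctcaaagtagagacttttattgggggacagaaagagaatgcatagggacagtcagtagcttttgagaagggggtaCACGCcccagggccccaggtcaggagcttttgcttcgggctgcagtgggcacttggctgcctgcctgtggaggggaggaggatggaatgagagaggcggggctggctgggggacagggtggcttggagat
Pdk4: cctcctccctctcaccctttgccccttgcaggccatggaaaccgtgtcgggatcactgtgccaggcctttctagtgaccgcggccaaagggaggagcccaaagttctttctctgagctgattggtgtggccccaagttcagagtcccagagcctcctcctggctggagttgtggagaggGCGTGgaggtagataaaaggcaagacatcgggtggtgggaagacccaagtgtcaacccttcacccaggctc
Slc2a1 (chr4:119108495-119108744, plus strand) holds 2 matches, with first letters 61 and 36 bases before the start. Adm (chr7:110627407-110627656, plus) holds 2, at 90 and 54 bases. Pfkp (chr13:6648772-6649021, minus) holds 3, at 136, 68 and 23 bases. Eno3 (chr11:70656926-70657175, plus) holds 1 at 130 bases and Pdk4 (chr6:5496279-5496528, minus) 1 at 71 bases.

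Both genes of glucose uptake rose. Slc2a1, which encodes the widely expressed glucose transporter GLUT1, read 12.37, 12.34 and 12.29 in control replicates 1, 2 and 3 and 12.78, 12.94 and 12.90 with miR-302. All miR-302 arrays lay above all control arrays, with replicate 1 the lowest of them. The difference was 0.54 ± 0.07 (SE) on the log2 scale, 1.45-fold (limma, adjusted p = 0.00523). A second Slc2a1 row, near the median level, went from 5.89 to 6.22. Slc2a3, which encodes the high-affinity transporter GLUT3, read 11.96, 11.92 and 11.89 in control and 12.25, 12.42 and 12.39 with miR-302. The groups again did not overlap, and the rise was 0.43 ± 0.07, 1.35-fold (adjusted p = 0.0116). Its call was lost without control hairpin replicate 3 (adjusted p = 0.0543).

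Of the hexokinases, which phosphorylate glucose on entry, Hk1 fell. Hk1, the widely expressed hexokinase, read 8.15, 8.01 and 8.04 in control and 7.62, 7.39 and 7.46 with miR-302, where all arrays were lower. The fall was −0.58 ± 0.09 (SE), 1.49-fold lower (adjusted p = 0.00722). A row of low level that Hk1 shares with Hk1os differed by 0.15, the opposite way, with groups that did not overlap. That row cannot be split between its genes. Hk2, the inducible hexokinase and a HIF target, read 10.13, 10.23 and 10.15 in control and 10.03, 9.93 and 9.97 with miR-302. Its groups did not overlap either, but the difference of −0.19 ± 0.07 did not pass the test (adjusted p = 0.112). The difference between the changes of Hk1 and Hk2 was not tested.

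Phosphofructokinase is encoded by Pfkm, Pfkl and Pfkp, named for muscle, liver and platelets, whose subunits assemble into mixed tetramers. Pfkp read 10.38, 10.46 and 10.38 in control and 10.03, 9.50 and 9.38 with miR-302, −0.77 ± 0.17 (SE) and 1.71-fold lower (adjusted p = 0.0238). Pfkm read 8.94, 9.05 and 8.79 in control and 8.66, 8.10 and 8.05 with miR-302, −0.66 ± 0.17 and 1.58-fold lower (adjusted p = 0.0448). In both genes the groups did not overlap and miR-302 replicate 1 lay between the control arrays and the other miR-302 arrays. Pfkl read 9.73, 9.69 and 9.52 in control and 9.71, 9.18 and 9.08 with miR-302. There the groups overlapped, because replicate 1 was at the control level, and the difference of −0.32 ± 0.17 was not called (adjusted p = 0.258; −0.52 and 0.0108 without that array).

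Pfkfb3 and Pfkfb4 encode the bifunctional enzymes that make and remove the main activator of phosphofructokinase. Neither was called. Pfkfb3 read 6.16, 6.05 and 6.20 in control and 6.28, 6.54 and 6.29 with miR-302, a difference of 0.23 (adjusted p = 0.157) with groups that did not overlap. Pfkfb4 was 6.60 ± 0.09 (SD, n = 3) and 6.67 ± 0.18 (adjusted p = 0.741), and its 95% interval reached from −0.19 to 0.32.

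Of the aldolases, which split the bisphosphorylated sugar, only Aldoc had a row of its own. This brain-type aldolase read 8.89, 8.94 and 8.79 in control and 8.34, 7.76 and 7.85 with miR-302. All miR-302 arrays were lower, the change being −0.89 ± 0.15 (SE), 1.85-fold lower (adjusted p = 0.0116). It was −1.07 without miR-302 replicate 1. The widely expressed Aldoa is covered by a row it shares with Aldoart1, which read 6.37 in control and 6.15 with miR-302 in mean.

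Of the enzymes from triose phosphate isomerase to enolase, Eno3 passed the test and the others measured did not. Eno3, the muscle-type enolase, read 10.63, 10.69 and 10.61 in control and 10.20, 9.73 and 9.57 with miR-302. The groups did not overlap, and the fall was −0.81 ± 0.16 (SE), 1.75-fold (adjusted p = 0.0172). Eno2, the neuronal enolase, was 5.70 ± 0.20 (SD, n = 3) in control and 5.94 ± 0.28 with miR-302, not called (adjusted p = 0.384). Tpi1, triose phosphate isomerase, read 11.89, 11.86 and 11.75 in control and 11.70, 11.53 and 11.39 with miR-302. Its groups did not overlap, and the difference was −0.29 (adjusted p = 0.0919; −0.37 and 0.0232 without miR-302 replicate 1). Pgk1, which makes the first ATP of the pathway, read 11.79, 11.83 and 11.77 in control and 11.98, 11.89 and 11.85 with miR-302, higher by 0.11 in mean (adjusted p = 0.348). The mutase gene Pgam1 differed by 0.12 (adjusted p = 0.476). Gapdh, often taken as a reference gene, was 13.25 ± 0.02 in control and 13.20 ± 0.03 with miR-302 (adjusted p = 0.664, 95% interval −0.20 to 0.10).

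Pyruvate kinase and lactate dehydrogenase, which end the pathway, were not called. Pkm read 12.47, 12.40 and 12.43 in control and 12.36, 12.21 and 12.23 with miR-302, a difference of −0.17 (adjusted p = 0.180). Ldha, the subunit that favours lactate formation, read 8.27, 8.31 and 8.35 in control and 8.22, 8.11 and 7.90 with miR-302, a difference of −0.23 (adjusted p = 0.158). In both, all miR-302 arrays were below all control arrays. Ldhb was 10.15 ± 0.07 (SD, n = 3) and 10.06 ± 0.24 (adjusted p = 0.682). In all, 23 of the 36 genes had groups that did not overlap, against 35.8% of all genes, of which 9 were higher with miR-302 (16.8% of all genes) and 14 lower (19% of all genes). Of these 23, 12 were not called. As 32 of the 36 had a mean at or above the median level, a share among genes of such level would be the nearer comparison, and it was not counted.

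**Figure D2:**
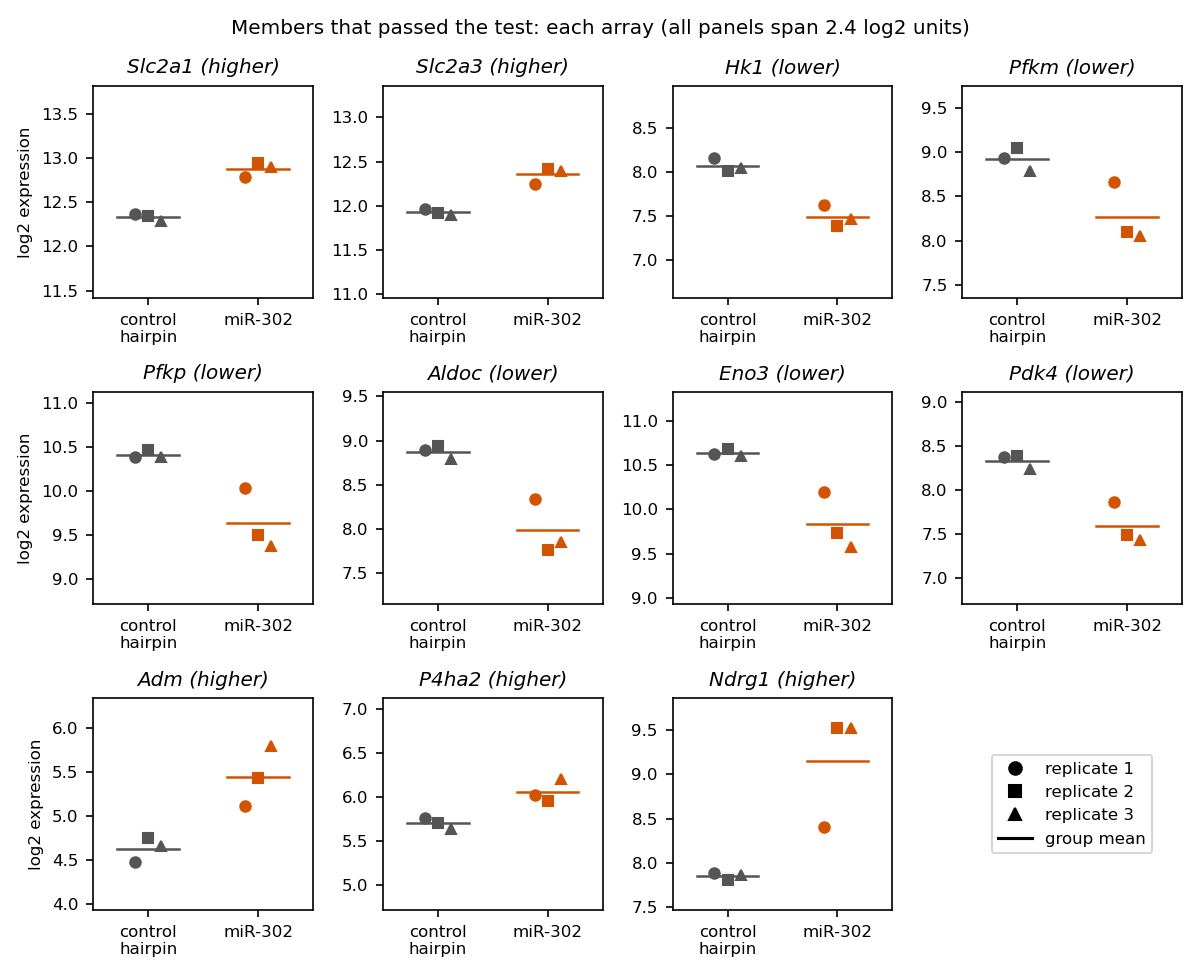
Log2 expression (y axis) of the 11 genes that passed the test, on each of 3 control hairpin and 3 miR-302 arrays (x axis). Symbols mark replicates, lines mark group means, and every panel spans the same range. In each panel the groups do not overlap, and miR-302 replicate 1 (circles) lies nearest to the control arrays in all but P4ha2.

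The monocarboxylate transporters, which carry lactate and pyruvate across the membrane, showed no call. Slc16a1 (MCT1) was 11.08 ± 0.06 (SD, n = 3) in control and 10.94 ± 0.13 with miR-302 (adjusted p = 0.355). Slc16a3 (MCT4), the lactate exporter of glycolytic cells and a HIF target, read 7.81, 7.82 and 7.64 in control and 8.78, 7.74 and 7.67 with miR-302. A single array, miR-302 replicate 1, was high, and the other 2 were at the control level. Its log2 difference was 0.31 with that array and −0.05 without it.

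All 4 PDK genes were lower in mean with miR-302, and Pdk4 passed the test. Pdk4, the starvation-induced kinase, read 8.37, 8.39 and 8.24 in control and 7.86, 7.49 and 7.43 with miR-302. The groups did not overlap, and the fall was −0.74 ± 0.13 (SE), 1.67-fold (adjusted p = 0.0104). Pdk1, the kinase induced by HIF, read 9.43, 9.43 and 9.42 in control and 9.34, 9.10 and 9.03 with miR-302, a difference of −0.27 ± 0.09 that was not called (adjusted p = 0.106). Pdk2 read 7.34, 7.38 and 7.49 in control and 7.33, 6.95 and 7.13 with miR-302, −0.27 in mean (adjusted p = 0.157). Pdk3 read 10.16, 10.12 and 10.13 in control and 10.05, 9.92 and 9.84 with miR-302, −0.20 in mean (adjusted p = 0.137). In all 4 genes the groups did not overlap, and without miR-302 replicate 1 all 4 were called, with Pdk1 at −0.36 (adjusted p = 0.0105).

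The oxygen sensing genes were not called. Hif1a, the oxygen-regulated subunit, read 9.82, 9.85 and 9.90 in control and 10.00, 10.23 and 10.21 with miR-302. All miR-302 arrays were higher, by 0.29 ± 0.09 (SE), with an adjusted p of 0.0642, and of 0.0110 without replicate 1. A second Hif1a row, of low level, differed by 0.30 with overlapping groups, and a row shared with S100a11-ps by 0.02. The HIF1A protein is controlled mainly by degradation, which arrays do not measure. Egln1, the main HIF hydroxylase, was 8.49 ± 0.04 (SD, n = 3) and 8.47 ± 0.18 (adjusted p = 0.927, 95% interval −0.26 to 0.22). Egln3, a hydroxylase that is itself a HIF target, read 10.35, 10.15 and 10.19 in control and 10.40, 9.66 and 9.58 with miR-302. Replicate 1 was slightly above the control range and the other 2 were below it. The difference was −0.35 (adjusted p = 0.333), and −0.61 without replicate 1 (adjusted p = 0.00532).

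Of the hypoxia-responsive genes, Ndrg1 rose most. Ndrg1, a gene of growth arrest and differentiation that responds to hypoxia, read 7.88, 7.81 and 7.86 in control and 8.40, 9.52 and 9.52 with miR-302. All miR-302 arrays were higher, replicate 1 by far the least. The rise was 1.30 ± 0.29 (SE), 2.46-fold (adjusted p = 0.0279), and 1.67 without replicate 1 (adjusted p = 9.19e-05). A second Ndrg1 row of low level read 3.98 in replicate 1, below all controls, and 4.89 and 4.60 in replicates 2 and 3, above them. With both rows averaged the gene lost its call.

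Adm encodes adrenomedullin, a secreted vasodilator peptide. It read 4.48, 4.75 and 4.66 in control and 5.11, 5.43 and 5.79 with miR-302, where all arrays were higher, by 0.81 ± 0.17 (SE), which is 1.76-fold between measured values (adjusted p = 0.0230). P4ha2, a catalytic subunit of the enzyme that hydroxylates collagen proline, read 5.76, 5.70 and 5.64 in control and 6.02, 5.95 and 6.20 with miR-302. That is 0.36 ± 0.09 higher, 1.28-fold (adjusted p = 0.0369). Adm and P4ha2 lie below the median level of all genes, where a value cannot be told from background, so the size of their fold is uncertain. The related subunit gene P4ha1 read 8.45, 8.45 and 8.36 in control and 8.50, 7.73 and 7.61 with miR-302. Replicate 1 again matched the controls, and the difference was −0.47 (adjusted p = 0.213), or −0.75 without it (adjusted p = 0.00153).

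The remaining hypoxia genes were not called. Bnip3, a mitophagy receptor, read 6.43, 6.68 and 6.31 in control and 7.46, 7.06 and 6.69 with miR-302. All miR-302 arrays were higher and replicate 1 the highest, with a difference of 0.60 ± 0.20 (SE) and an adjusted p of 0.0928. Vegfa, the main growth factor of blood vessels, read 7.65, 7.48 and 7.63 in control and 8.45, 7.57 and 7.37 with miR-302. A single array was high here too: the difference was 0.21 with miR-302 replicate 1 and −0.12 without it. Ero1l (Ero1a), an oxidase of disulfide formation in the endoplasmic reticulum, read 10.20, 10.37 and 10.31 in control and 10.17, 10.05 and 9.98 with miR-302, −0.23 in mean with groups that did not overlap (adjusted p = 0.121). Car9, a carbonic anhydrase that is almost silent without hypoxia in many tissues, was 5.61 ± 0.10 (SD, n = 3) and 5.75 ± 0.21 (adjusted p = 0.510). Its other row differed by −0.12, the opposite way.

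**Figure D3:**
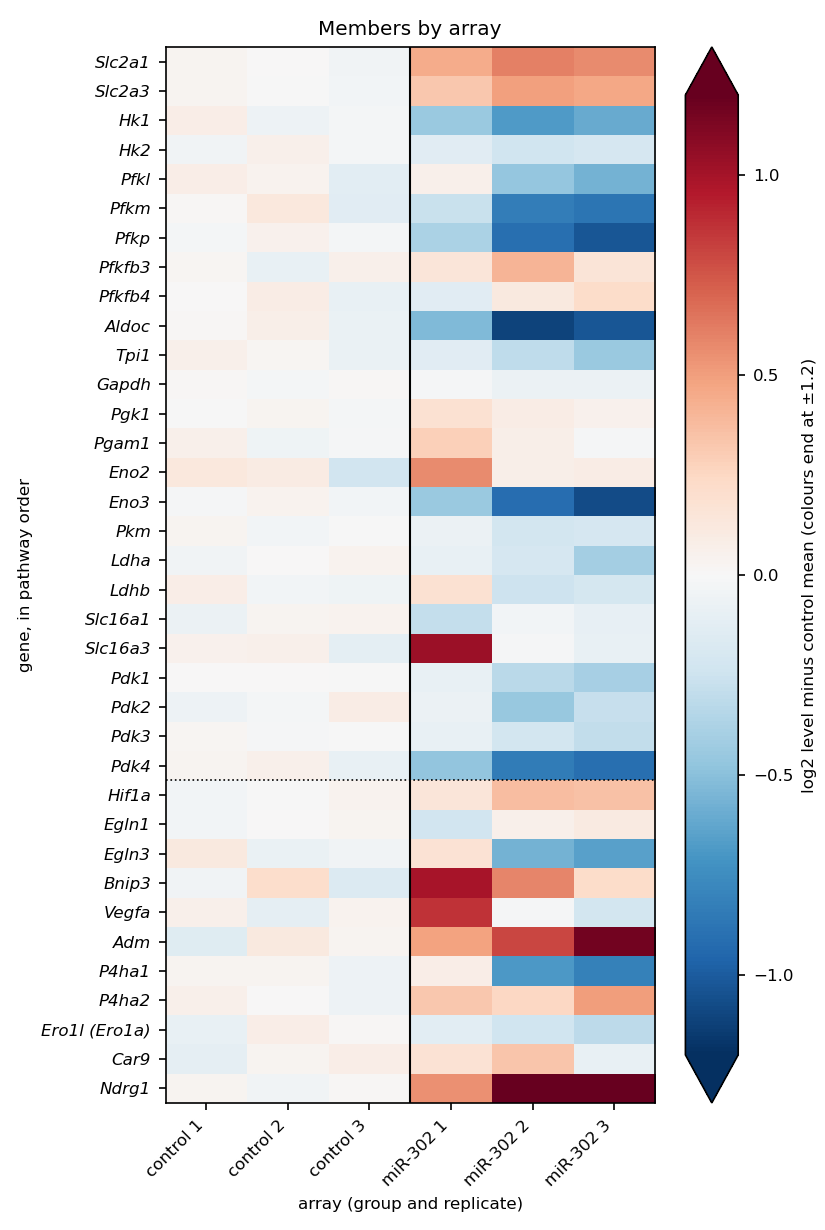
Level of each of the 36 genes (rows, in pathway order) on each of the 6 arrays (columns), as log2 level minus the control mean, with red above and blue below it and colours ending at 1.2. Replicates 2 and 3 of miR-302 look alike, and miR-302 replicate 1 is paler for most called genes and red for Slc16a3, Bnip3 and Vegfa.

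The genes in which miR-302 replicate 1 differed from replicates 2 and 3 form a pattern of their own. It was at least 0.5 above their mean on the log2 scale in 10 of the 36 genes, against 4.12% of all genes, and at least 0.5 below it in 2 (Adm and Ndrg1), against 4.94%. The 10 were Pfkl, Pfkm, Pfkp, Aldoc, Eno3, Slc16a3, Egln3, Bnip3, Vegfa and P4ha1. The gap was widest for Slc16a3, at 1.08, then Vegfa at 0.98, P4ha1 at 0.83 and Egln3 at 0.78. For Pfkm, Pfkp, Aldoc and Eno3 replicate 1 lay between control and the other miR-302 arrays. For Pfkl, Egln3 and P4ha1 it was within 0.2 of the control mean, and for Slc16a3, Bnip3 and Vegfa it was 1.02, 0.99 and 0.86 above it. Replicate 1 was the highest of all 6 arrays in 9 of the 36 genes, a share near the 19.4% of all genes. The 9 were Slc16a3, Bnip3, Vegfa, Egln3, P4ha1, Pgk1, Pgam1, Eno2 and Ldhb. No control array was at least 0.5 from the mean of its group's others in any of the 36 genes. Among the 11 called genes, replicate 1 lay between the control mean and both other miR-302 arrays in 10, against 55.3% of all called genes. The summed level of trophectoderm markers given above was also lowest in that miR-302 array, but Krt8 and Krt18 make up most of that sum. Taken singly, Gata3 read highest in that miR-302 array (7.78, against 7.45 and 7.68), and the other trophectoderm markers read lowest there. The part of these markers in the pattern was not tested.

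**Figure D4:**
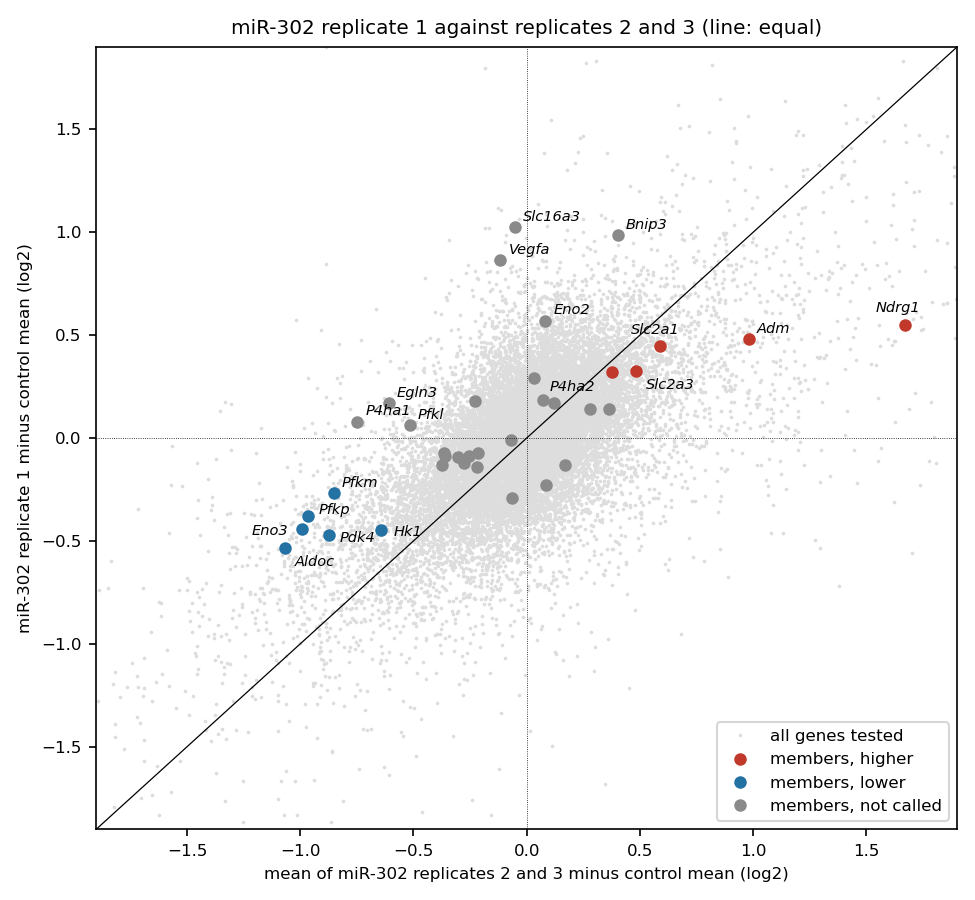
Log2 level minus control mean in miR-302 replicate 1 (y axis) against the mean of miR-302 replicates 2 and 3 (x axis). Grey specks are all genes tested within the plotted range of 1.9 either way, larger points are the 36 genes coloured by call, and the line marks equal values. Slc16a3, Vegfa and Bnip3 lie far above the line, and Ndrg1 and Adm below it.

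Genes of neighbouring routes of glucose carbon were also called; over all genes tested, 7.18% were higher and 9.25% lower. Of 6 measured genes of the pentose phosphate pathway, which makes ribose and NADPH, 4 were lower and 1 higher (median −0.44). All 6 had a mean at or above the median level, and when only genes of such level were tested 22.4% were lower. The genes of this list were not counted in that fit. Rpia, the isomerase that yields ribose phosphate, went from 8.93 ± 0.02 (SD, n = 3) to 7.78 ± 0.22, 2.21-fold lower (adjusted p = 0.00198). Pgd, an NADPH-making dehydrogenase, went from 11.66 ± 0.06 to 11.11 ± 0.10 (adjusted p = 0.00658), while the epimerase gene Rpe rose from 9.70 ± 0.03 to 10.15 ± 0.04 (adjusted p = 0.00623). Of 7 genes of gluconeogenesis, 2 were lower and 1 higher. Pck2, the mitochondrial phosphoenolpyruvate carboxykinase and also a gene of the amino acid stress response, went from 8.50 ± 0.13 to 7.10 ± 0.33, 2.65-fold lower (adjusted p = 0.00353). Slc37a4 changed by −0.37 and Fbp1 by 0.42, the latter at a low level. Of 15 other glycolytic isozymes and regulators, 2 were lower and none higher (2 and 2 without miR-302 replicate 1), a share near that over all genes. The 2 lower were Pgm2, a phosphoglucomutase, and Galm, which interconverts the forms of sugars, at −0.60 and −0.49.

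Some genes downstream of pyruvate fell, beside 9.25% lower over all genes tested. All measured genes of pyruvate entry and use and of the citric acid cycle had a mean at or above the median level. When only genes of such level were tested, 22.4% were lower. The lists were not counted in that fit, so whether they fall more often than genes of their level was not tested. Of 10 genes of pyruvate entry into the mitochondrion and its use there, 2 were lower. They were Dlat, a core subunit of pyruvate dehydrogenase (−0.49 ± 0.08 SE, adjusted p = 0.00981), and Pdp1, the phosphatase that reverses the PDKs (−0.59 ± 0.10, adjusted p = 0.00927). Pdp1 and Pdk4, enzymes with opposite effects on the same complex, were thus both lower. Of 16 genes of the citric acid cycle, 3 were lower and 1 higher (median −0.14), with Sdhb at −0.46, Suclg2 at −0.38 and Sdhd at 0.35. Without miR-302 replicate 1, 6 were lower, where 13.1% of all genes were. Of 12 other transporters of glucose and monocarboxylates 2 were higher, Slc2a12 (0.91, adjusted p = 0.0435) and Slc16a7 (0.70, adjusted p = 0.0455), both at low levels, beside 7.18% of all genes. Without miR-302 replicate 1, Slc2a8 was called lower as well, at −0.54.

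Other hypoxia genes moved in both directions. Of 25 measured, 4 were higher and 4 lower (median 0.05), beside 16.4% called over all genes, and without miR-302 replicate 1 there were 8 and 8, beside 24.3%. Of the 25, 23 had a mean at or above the median level, and when only genes of such level were tested 38.7% were called. These hypoxia genes were not counted in that fit. Ak4, a mitochondrial adenylate kinase, went from 9.29 ± 0.02 (SD, n = 3) to 10.39 ± 0.19, 2.14-fold higher (adjusted p = 0.00177). Hmox1, heme oxygenase, which also answers oxidative stress, went from 9.80 ± 0.05 to 10.84 ± 0.16, 2.06-fold higher (adjusted p = 0.00152). Ppfia4 fell by 0.70 on the log2 scale (adjusted p = 0.00230). Of 10 genes of the HIF machinery, 2 were lower and 1 higher (3 and 1 without miR-302 replicate 1). Vhl, which encodes the ubiquitin ligase subunit that degrades hydroxylated HIF1A, went from 8.38 ± 0.06 to 7.68 ± 0.15, 1.62-fold lower (adjusted p = 0.00504). Arnt2, a dimer partner of HIF, changed by −0.71 (adjusted p = 0.00787), and Hif3a, a HIF family member, by 0.52 (adjusted p = 0.0124). Vhl and Arnt2 were called in all 6 fits that left out 1 array.

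**Figure D5:**
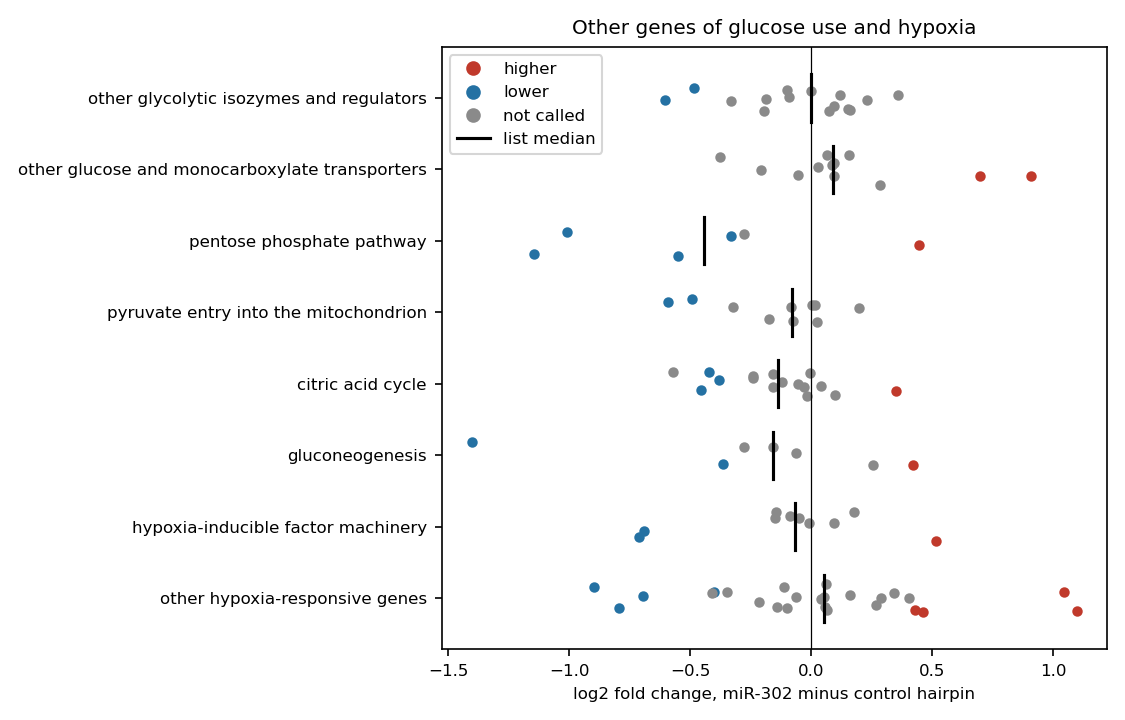
Log2 fold change, miR-302 minus control hairpin (x axis), of genes in 8 further lists of glucose use and hypoxia (y axis, with points spread within a list to separate them). Colour gives the call and black bars the list medians. The pentose phosphate list has the lowest median, −0.44, with 4 genes lower and 1 higher.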

How the data were processed

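RNA of 6 samples was labelled with biotin and measured on expression arrays of 1 colour, as the labels' protocols say. The authors deposited log2 values processed with RMA, per the submitters' processing notes; version, genome build and log base were not given in the sources used here, and base 2 is what RMA gives. Array medians were 5.60 to 5.62, since RMA equalises distributions, which hides any shift common to all genes. The table has 33649 rows; the platform annotation gives a single gene for 23521. The row with the highest mean stood for a gene with several rows (1082 genes), and levels of different rows were not ranked against each other.

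The test was limma's (version 3.58.1, R 4.3.3; lmFit and eBayes, two-sided) with Benjamini-Hochberg adjustment over 22180 genes and a threshold of 0.05; adjusted p-values come from this fit, which was also tested on simulated data. A summed level adds 2 to the power of each value. p-values reflect the spread between 3 and 3 samples, which the series describes as independent; the number of arrays limits the precision. The set and the 12 further lists (137 of 147 genes measured) were chosen with earlier results of these data known. Named are all listed genes and up to 3 genes of each further list with the smallest p; the planned choice of a main isozyme by level was dropped. Alternatives were a replicate block, leaving out each array, a filter at the median level, a trend with a robust prior, median centring, quantile normalization, the mean of a gene's rows, array weights and a 1.5-fold minimum. Figures used matplotlib 3.10.9 in Python 3.11.15.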

Additional observations from a re-analysis of the deposited data

How the results depend on the processing

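Of the 36 genes, 11 were called (5 higher, 6 lower). Leaving out 1 array gave 4 to 19 calls, 1 to 6 higher and 2 to 13 lower, with the highest counts in the fit without miR-302 replicate 1; over all genes these fits called 1728 to 5395, 685 to 2484 higher and 1043 to 2911 lower, against 3643, 1592 and 2051. An intensity trend with a robust prior gave 17 calls (11 lower), array weights 22 (16 lower), and a 1.5-fold minimum 7 (2 higher). Over all genes, array weights called 5621 (2617 higher) and the 1.5-fold minimum 1561 (636 higher, 925 lower). Adding a replicate block left 9 of the 36 called, Pfkm and P4ha2 losing their calls, and 2293 of all genes were called (964 higher, 1329 lower; 10.3% of all). Same-numbered samples did not deviate together (correlations of deviations over genes 0.02, 0.02 and 0.01), and not every sample correlated best with its own number, so the samples share only a number. Quantile normalization removed the call of Pfkm and the mean of a gene's rows that of Ndrg1; centring arrays changed no call. No called gene turned its direction. Among genes not called, Vegfa, Slc16a3 and Egln1 changed sign without miR-302 replicate 1 and Pfkfb4 without miR-302 replicate 3; over the fits that left out 1 array the log2 difference spanned −0.117 to 0.423 for Vegfa, −0.0517 to 0.503 for Slc16a3, −0.0817 to 0.0833 for Egln1 and −0.0083 to 0.167 for Pfkfb4. Vegfa and Egln1 also changed sign with array weights (−0.0249 and 0.0505) and Egln1 with quantile normalization (0.0272). The cause of these differences was not tested. No detection calls were used, so low levels such as those of Adm, P4ha2, Eno2 and Car9 cannot be told from background.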

Other observations

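Rows shared between genes give some values for genes without a row of their own. Bnip3l, the mitophagy receptor related to Bnip3, shares a row with its pseudogene, and this row read 11.62, 11.60 and 11.64 in control and 11.63, 11.43 and 11.55 with miR-302, a change of −0.08 with overlapping groups. Ankrd37, a HIF target, shares a row with Lrp2bp that read 5.49, 5.30 and 5.28 in control and 5.65, 5.29 and 5.24 with miR-302, with replicate 1 the highest. A row shared by Slc16a3 and Csnk1d read 9.32, 9.34 and 9.28 in control and 9.44, 9.57 and 9.56 with miR-302; unlike the row of Slc16a3 alone, it was not highest in replicate 1. These rows cannot be split between their genes.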
